A study of Mus musculus with 3 samples.

Results

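The genes described here encode small nucleolar RNAs (snoRNAs), and the data were read counts per gene in mouse midbrain at postnatal day 3. They were selected on their symbol and on their total count, as genes named Snora or Snord plus a number with at least 10 counts over all libraries. Of 49585 genes listed, 140 had such a symbol, 99 of them Snord and 41 Snora. The count limit kept 137 members, 97 Snord and 40 Snora. Just inside it stood Snord123 and Snora15, with 10 counts each. Just outside it stood Snora35 with 9 counts, Snord92 with 7 and Snord93 with 6. Because total counts chose the members, their levels are given as a description.

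The series compared C57BL/6 mice of wild-type genotype (WT, 1 library) with mice whose genotype is labelled FGR (2 libraries), an abbreviation that the labels leave undefined. Both groups shared strain, age and tissue, and no treatment is named for either. Brain tissue was frozen and Trizol RNA went into TruSeq RNA libraries. The labels do not tie the FGR libraries to separate animals, so the p-values rest on the spread between these samples alone, which may be technical. With 1 WT library, the spread among WT mice was not measured, and the group cannot be told apart from the library.

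Box C/D snoRNAs, the Snord genes, carry a short C box near the 5′ end and a D box near the 3′ end, and most guide ribose methylation of ribosomal RNA. Box H/ACA snoRNAs, the Snora genes, fold into hairpins, end in an ACA box and guide the conversion of uridine to pseudouridine. In mammals most of them are cut out of introns of host genes, many of which encode ribosomal proteins or long noncoding RNAs. A few, such as Snord118, are needed for cleavage of the ribosomal RNA precursor, and an imprinted group that includes Snord116 and Snord64 is known mainly from neurons and has no established ribosomal target.

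The members were short. Snord models were 64 to 238 bases long (median 84) and Snora models 121 to 205 bases (median 132.5), and the length of each of the 140 genes equalled the GENCODE M21 gene span on GRCm38. GENCODE M21 sequences, read by gene identifier, were searched on the sense strand. The letters TGATGA stood within the first 20 bases of 69 of 97 Snord members (71.1%), 0 of 40 Snora members and 21.7% of all 1507 snoRNA genes of GENCODE M21. CTGA stood within the last 20 bases of 95 Snord members (97.9%), 4 Snora members and 35.4% of all snoRNA genes, and it can overlap TGATGA-like letters. ACA stood within the last 7 bases of 38 Snora members (95.0%), 5 Snord members (5.2%) and 693 of the 1507 snoRNA genes. The class given by the symbol therefore matched the box letters for most members.

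The sequences on which the results turn are printed 5′ to 3′, with the first TGATGA and the last CTGA of a Snord, or the last ACA of a Snora, in capitals. Snord64, Snord107 and Snord116l8 are shown because they share 1 imprinted locus on the minus strand, at chr7:59978808-59978874, chr7:59980876-59980945 and chr7:59879459-59879552. The sequence of Snord116l8 is also that of 13 other Snord116 copies.
Snord64: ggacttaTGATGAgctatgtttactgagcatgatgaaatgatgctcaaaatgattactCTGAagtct
Snord107: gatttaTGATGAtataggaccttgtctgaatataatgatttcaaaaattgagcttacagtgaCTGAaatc
Snord116l8: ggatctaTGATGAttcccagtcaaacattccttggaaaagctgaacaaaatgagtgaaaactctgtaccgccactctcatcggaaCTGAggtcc
The members of Gas5 on the plus strand are shown because all were higher in both FGR libraries. They lie at chr1:161036984-161037049 (Snord78), chr1:161037601-161037681 (the longer Snord80 model) and chr1:161038082-161038158 (Snord47).
Snord78: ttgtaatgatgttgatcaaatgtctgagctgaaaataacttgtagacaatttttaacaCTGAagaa
Snord80: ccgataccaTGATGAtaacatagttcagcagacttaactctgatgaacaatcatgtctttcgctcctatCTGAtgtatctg
Snord47: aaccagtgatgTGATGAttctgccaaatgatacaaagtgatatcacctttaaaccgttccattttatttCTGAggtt
Snord14e and Snord14d, at chr9:40804748-40804837 and chr9:40803995-40804080 on the plus strand, had the most counts, and Snord60, at chr17:24528476-24528553 on the plus strand, the highest log2 fold change of any member with 100 or more counts.
Snord14e: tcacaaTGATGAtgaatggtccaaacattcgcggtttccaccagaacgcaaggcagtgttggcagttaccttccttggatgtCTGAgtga
Snord14d: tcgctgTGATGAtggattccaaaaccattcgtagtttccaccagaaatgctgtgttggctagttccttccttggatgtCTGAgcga
Snord60: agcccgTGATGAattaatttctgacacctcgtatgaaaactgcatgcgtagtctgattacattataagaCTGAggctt
Snora73a and Snora73b, at chr4:132352775-132352979 and chr4:132352322-132352526 on the minus strand, and Snord17, at chr2:144265979-144266216 on the minus strand, are the 3 members longer than 200 bases.
Snora73a: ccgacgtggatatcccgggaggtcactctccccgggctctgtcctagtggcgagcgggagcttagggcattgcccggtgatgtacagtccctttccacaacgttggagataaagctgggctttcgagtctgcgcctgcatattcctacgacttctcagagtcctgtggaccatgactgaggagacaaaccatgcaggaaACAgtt
Snora73b: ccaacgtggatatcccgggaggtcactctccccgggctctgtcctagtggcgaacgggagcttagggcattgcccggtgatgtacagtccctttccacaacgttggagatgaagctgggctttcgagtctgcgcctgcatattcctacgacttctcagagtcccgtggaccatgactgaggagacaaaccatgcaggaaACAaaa
Snord17: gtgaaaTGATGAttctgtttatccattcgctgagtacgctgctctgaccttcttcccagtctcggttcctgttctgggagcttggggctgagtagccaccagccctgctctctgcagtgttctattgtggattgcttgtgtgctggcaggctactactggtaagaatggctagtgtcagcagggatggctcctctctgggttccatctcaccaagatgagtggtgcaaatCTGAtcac

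Libraries held 46240262 to 58444481 counts. Where 3 values follow a gene, they are in the order WT, FGR replicate 1 and FGR replicate 2. Members summed to 758.2 CPM (counts relative to library size, scaled by the TMM method) in WT and to 758.6 and 799.8 CPM in FGR replicates 1 and 2. Snord members summed to 534.9, 541.2 and 564.0 CPM in that order, and Snora members to 223.3, 217.4 and 235.7 CPM. Tissue markers differed between the groups. Of 7 midbrain markers 4 were called higher and Slc6a3 lower in FGR, and the list summed to 241.1 CPM in WT against 257.6 to 289.7 CPM in FGR. Of 7 markers of hypothalamus and ventral forebrain 6 were called lower (46.9 CPM summed in WT, 3.58 to 3.87 CPM in FGR, with Dlx5 at 0 in FGR replicate 1). All 4 hindbrain and noradrenergic markers were called higher (3.14 CPM, 33.1 to 39.4 CPM), 5 of 6 meningeal markers lower (751.9 CPM, 288.0 to 473.0 CPM), 2 of 3 erythroid markers higher (132.1 CPM, 188.7 to 208.7 CPM) and 0 of 3 neuronal markers (1530 CPM, 1377 to 1392 CPM). Their part in the values below was not tested. In such bulk tissue, fewer cells of a type and less RNA per cell cannot be told apart.

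Counts were concentrated in few members. The 6 most counted Snord members held 40.3% of all Snord counts and the 6 most counted Snora members 60.3% of all Snora counts. Per length, the median member was at 15.5 RPKM (the authors' read values scaled for length and library size) in Snord and 7.67 RPKM in Snora. Snord14e and Snord14d, both in the heat shock gene Hspa8, belong to a family that pairs with the small-subunit ribosomal RNA and is needed for its processing. Snord14e was at 681.9 RPKM in WT and 611.4 and 608.2 RPKM in FGR, and Snord14d at 681.7, 609.8 and 643.0 RPKM. In scaled counts, Snord14e was at 60.3 CPM in WT against 55.4 ± 0.0531 CPM in FGR (SD, n = 2), and the log2 fold change was -0.12 ± 0.07 (SE; edgeR adjusted p = 0.350). The FGR libraries lay below WT and close together, and the difference did not pass the test. Snord14c, in the same host, differs from Snord14d by 2 bases, so reads of this pair are uncertain. Snord14c was at 20.1 CPM in WT against 19.1 and 20.6 CPM in FGR. Snord14a, in Rps13, was at 10.3, 11.9 and 12.4 CPM (adjusted p = 0.382).

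**Figure D1:**
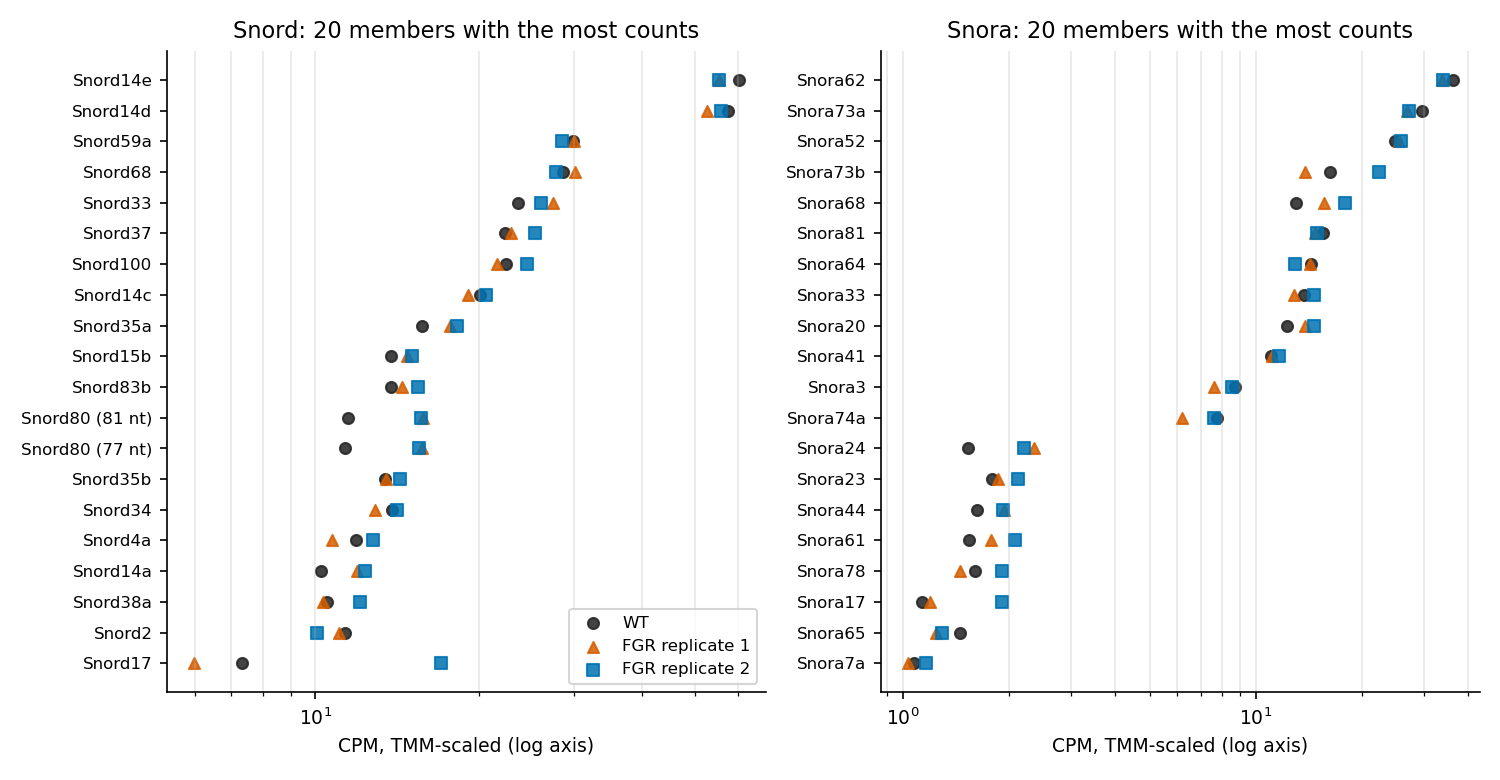
Scaled counts (CPM, log axis) of the 20 Snord members (left) and 20 Snora members (right) with the most counts, with a point for each library. Most rows have the 3 points close together; Snord80 has WT below both FGR libraries, and Snord17 (7.32 CPM in WT, 5.98 and 17.1 CPM in FGR) has the FGR libraries on opposite sides of WT.

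Among the other abundant Snord members, Snord59a of Atp5b was at 29.8 CPM in WT against a mean of 29.3 ± 1.04 CPM in FGR, and Snord68 of Rpl13 at 28.7, 30.1 and 27.7 CPM. In both, the WT level lay within the range of the FGR libraries. Snord33 of Rpl13a, known for a part in lipotoxic stress together with Snord32a and Snord35a, was at 23.7 CPM in WT against a mean of 26.7 ± 0.950 CPM in FGR (adjusted p = 0.421). Snord37 of Eef2 was at 22.4, 22.9 and 25.4 CPM. Of the 4 Rpl13a members, 3 were higher in both FGR libraries and none was called, with log2 fold changes of 0.17 (Snord33), 0.19 (Snord35a), 0.23 (Snord32a) and -0.03 (Snord34), beside 0.19 for Rpl13a itself.

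In the Snora class, Snora62 of Rpsa was at 36.2 CPM in WT against 33.8 and 34.0 CPM in FGR, and the log2 fold change was -0.09 ± 0.09 (adjusted p = 0.626). Snora52 of Rplp2 was at 24.9 CPM in WT against 25.6 and 25.8 CPM in FGR. Snora81 of Eif4a2 was at 15.5, 14.7 and 14.9 CPM. None of these 3 was called.

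At the ends of the range of Snora log2 fold changes, Snora24 of Snhg8 was at 1.52 CPM in WT against 2.34 and 2.21 CPM in FGR. Its log2 fold change of 0.58 ± 0.24 was not called (adjusted p = 0.218). Snora17, which lies in no annotated host, was at 1.13, 1.19 and 1.90 CPM (0.43 ± 0.33, adjusted p = 0.548). Both were above WT in both FGR libraries, Snora17 mainly in FGR replicate 2. Snora65 of Rpl12 had 78, 72 and 59 counts (-0.20 ± 0.29), and the shorter of the overlapping Snora16a models of Snhg12 had 33, 32 and 24 counts (-0.18 ± 0.45). These were below WT in CPM in both FGR libraries by less than their standard errors.

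The comparison of FGR with WT could be tested for 124 members, 86 Snord and 38 Snora. Of these, 119 passed the filter on low counts in every library. The other 5 passed in only 1 or 2 libraries, which was enough for a test, and 13 members had too few counts. By edgeR's quasi-likelihood test, 1 member was called at an adjusted p under 0.05, Snord64, which was higher. This was 0.806% of the members tested and 1.16% of the Snord members. Over all 25561 genes tested, 4.25% were called, 1.66% higher and 2.59% lower. An unadjusted p under 0.05 was found for 9 members (7.26%), against 18.3% of all genes. The median standard error of the log2 fold change was 0.27 in tested members and 0.17 over all genes tested. Shares of members and of all genes therefore compare unlike precision. No Snora member was called by edgeR or by DESeq2, a second count model. DESeq2 gave no adjusted p for some Snora members, among them Snora17, Snora31, Snora47 and Snora65. By edgeR 2 Snora members, among them Snora24, had an unadjusted p under 0.05.

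The FGR libraries were both above or both below WT in 69.4% of the members tested, 72.1% in Snord and 63.2% in Snora, against 76.7% of all genes tested. Over all members, 60 were above WT in both FGR libraries and 35 below, while 42 had WT between the FGR libraries. Of Snord members, 47 were above and 23 below, and of Snora members 13 were above and 12 below. Among all genes tested, 38.5% were above and 38.2% below. The median log2 fold change was 0.11 in Snord (0.07 in FGR replicate 1 and 0.14 in FGR replicate 2), 0.02 in Snora (-0.05 and 0.09) and -0.0002 over all genes tested. Without the Snord116 copies the Snord median was 0.20, an alternative added after the data were seen. The sign of the Snora median depended on the library and on the scaling, since it was -0.02 with scaling by total count alone.

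Precision followed depth. The median standard error of the log2 fold change was 0.13 for the 36 members with 1000 or more counts, 0.26 for the 52 members with 100 or more but under 1000 and 0.57 for the 36 tested of 49 members with 10 to 99. Members with the highest or lowest values and few counts were therefore not resolved. Snord42b of Rpl23a had 11 counts in WT and 21 and 19 in FGR (log2 fold change 0.91 ± 0.66). Snord98 of Ccar1 had 6, 9 and 12 counts (0.87 ± 0.93) and passed the filter on low counts only in FGR replicate 2, its highest library. Snora47 of Zbed3 had 14, 22 and 16 counts (0.49 ± 0.63), and Snora31 of Tpt1 18, 14 and 13 counts (-0.35 ± 0.65). Differences of this size were not detectable at such depth.

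**Figure D2:**
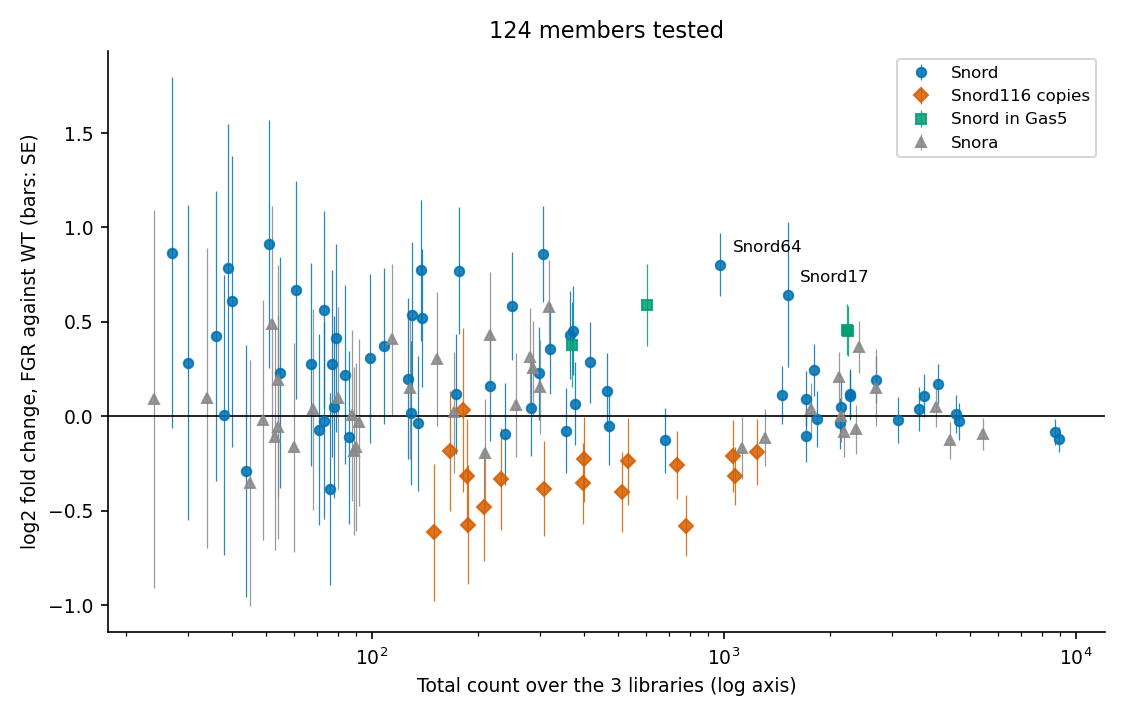
Log2 fold change of FGR against WT (edgeR, bars are standard errors) over the total count of each of the 124 members tested (log axis). The bars narrow with count; the orange Snord116 copies lie mostly below 0, the green Gas5 members above 0, and Snord64 at 0.80 is the member called.

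Snord64 was the member that rose. It had 223 counts in WT and 443 and 311 in FGR, or 4.14 CPM in WT against 7.63 and 6.80 CPM in FGR. Both FGR libraries were above WT, and the gap to WT was wider than the gap between them. The FGR mean of 7.22 ± 0.589 CPM (SD, n = 2) was 1.75-fold higher, and the log2 fold change was 0.80 ± 0.17 (SE; edgeR adjusted p = 0.0145). The call was lost in DESeq2 (log2 fold change 0.80, adjusted p = 0.162) and was made in the other 7 alternative fits, with adjusted p from 0.0104 to 0.0345. The log2 fold change was 0.71 with FGR replicate 1 left out and 0.88 with FGR replicate 2 left out, both without a test.

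Snord64 lies in an exon of the gene model Gm38393, which also holds Snord107, another imprinted box C/D snoRNA 2.07 kb away. Gm38393 rose too, from 220.5 CPM in WT to 298.9 and 268.6 CPM in FGR, and the log2 fold change was 0.36 ± 0.09 (adjusted p = 0.0384). Scaling by total count alone (adjusted p = 0.0584) and a stricter filter (adjusted p = 0.0666) ended this call. How reads in the shared exon were divided between snoRNA and host is not given in the sources used here. Snord64 and Gm38393 may therefore share reads, and their rises may not be separate measurements. Snord107 had 124 counts in WT and 166 and 126 in FGR, or 2.30 CPM in WT against 2.86 and 2.76 CPM in FGR. It too was higher in both FGR libraries, but its log2 fold change of 0.29 ± 0.21 was not called (adjusted p = 0.533).

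Farther along the same strand, 76.12 to 119.14 kb from Snord107, lie 17 copies of Snord116, the box C/D snoRNA whose human counterpart is deleted in Prader-Willi syndrome. They are 94 bases long, stand in introns of the long noncoding RNA gene Snhg14 and are spaced by a median of 2532 bases. The sequence is identical in 14 copies. Counted from the 5′ end of Snord116l8, Snord116l9 differs by G1A and C16T, Snord116l14 by G83T and Snord116l12 by C74A, T77A and C81A. A read from inside an identical copy cannot be placed, so the values of single copies are uncertain. The 14 identical copies nevertheless had totals from 167 counts (Snord116l2) to 1245 counts (Snord116l8), a 7.46-fold range. Their order was alike in every pair of libraries (Spearman's rho across copies 0.956 to 0.987, n = 14 copies of 1 sequence, which share libraries and are not independent).

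Of the Snord116 copies, 16 of 17 had a negative log2 fold change. In both FGR libraries 13 were below WT and 0 above it, against 38.2% and 38.5% of all genes tested. None of the copies was called (edgeR adjusted p 0.0639 to 0.979). By unadjusted p under 0.05 there was 1, Snord116l15. DESeq2 also called none, but it gave no adjusted p for some copies, among them Snord116l9, Snord116l10, Snord116l12 and Snord116l14. The median log2 fold change was -0.32 (-0.29 in FGR replicate 1 and -0.41 in FGR replicate 2), beside -0.0002 over all genes tested. The copies summed to 60.9 CPM in WT against 49.0 and 49.1 CPM in FGR. Because reads may be exchanged among identical copies, the 17 values are not independent measurements.

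Snord116l15 was at 6.33 CPM in WT against 4.33 and 4.16 CPM in FGR, and the log2 fold change was -0.58 ± 0.16 (adjusted p = 0.0639). With scaling by total count alone it was called (log2 fold change -0.62, adjusted p = 0.0382); over its 8 alternative fits adjusted p ran from 0.0382 to 0.547. Snord116l12, with 67, 36 and 47 counts, was at -0.61 ± 0.36 and Snord116l10, with 81, 68 and 38 counts, at -0.57 ± 0.32. Of the 3 most counted copies, Snord116l16 was at 7.80 CPM in WT against 6.58 and 5.93 CPM in FGR (-0.32 ± 0.15), with both FGR libraries lower. Snord116l8 was at 8.67 CPM in WT against 6.51 and 8.75 CPM in FGR, and Snord116l4 at 7.48, 5.33 and 7.68 CPM, so that FGR replicate 2 reached the WT level in both of these. Snord116l14 was the exception in sign, with 60, 94 and 28 counts and a log2 fold change of 0.03 ± 0.43, which was negative with total count scaling (-0.0037) and in limma-voom (-0.085).

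The host Snhg14 was at 1495 CPM in WT against 1840 and 1421 CPM in FGR, and the log2 fold change was 0.12 ± 0.15 (adjusted p = 0.727). All 17 copies had a lower log2 fold change than Snhg14, and the difference itself was not tested. Neuronal markers, which bear on a neuronal locus, were below WT in both FGR libraries for 3 of 3 genes without a call. Their part in these values was not tested.

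**Figure D3:**
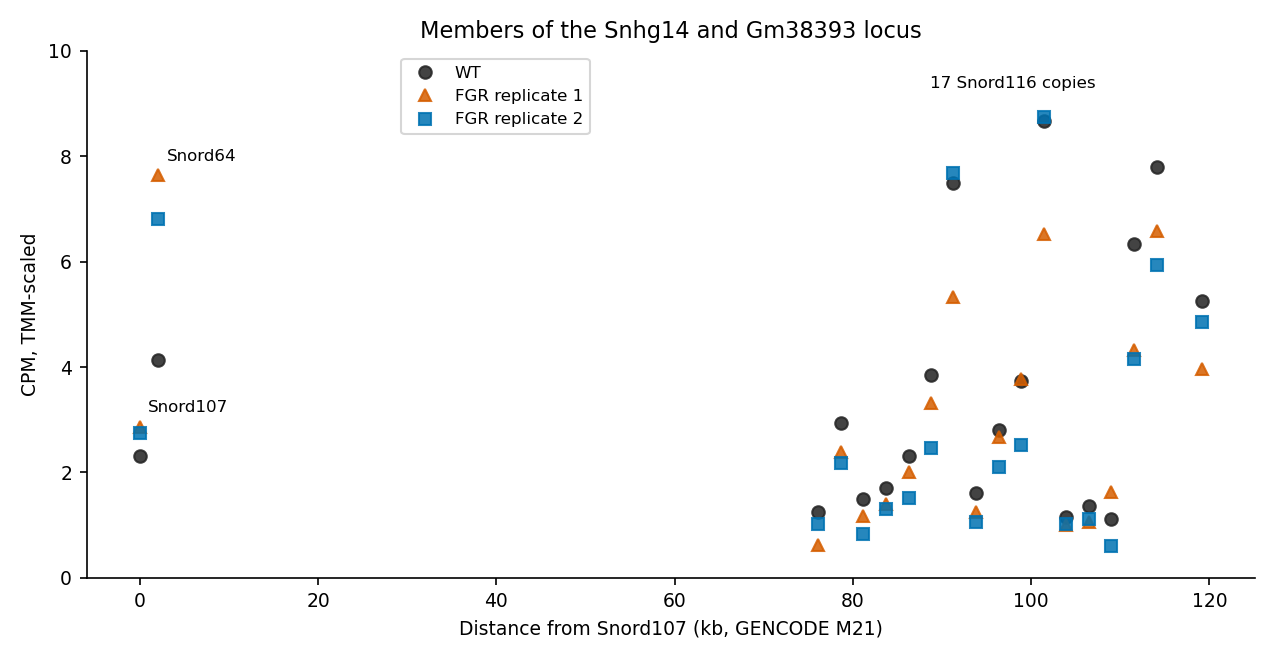
Scaled counts (CPM) of Snord107, Snord64 and the 17 Snord116 copies in each library, by distance from Snord107 in kb. Snord64 has both FGR libraries above WT (4.14 CPM), while 13 of 17 Snord116 copies have both FGR libraries below WT, and levels differ from copy to copy in a similar order in each library.

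Gas5, a growth arrest gene whose transcript serves mainly as a host of box C/D snoRNAs, held 4 member models, all higher in both FGR libraries. Snord80 is listed as 2 overlapping models of 77 and 81 bases with nearly equal counts, so the pair is 1 measurement. The longer model had 619 counts in WT and 916 and 715 in FGR, or 11.5 CPM in WT against 15.8 and 15.6 CPM in FGR. The FGR libraries nearly coincided, and the log2 fold change was 0.45 ± 0.13 (adjusted p = 0.0735). The shorter model was at 0.46 ± 0.13 (adjusted p = 0.0693). A robust edgeR fit called both models and limma-voom the shorter. Snord78 was at 2.86 CPM in WT against 4.96 and 3.61 CPM in FGR (0.59 ± 0.22, adjusted p = 0.156). Snord47 was at 1.97, 2.46 and 2.67 CPM (0.38 ± 0.23, adjusted p = 0.411). The 4 models summed to 27.7 CPM in WT against 38.9 and 37.5 CPM in FGR. This sum holds both overlapping Snord80 models, so it may count the same reads again.

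Gas5 itself rose, from 134.8 CPM in WT to 160.2 and 174.0 CPM in FGR, and the log2 fold change was 0.31 ± 0.08 (adjusted p = 0.0384). This call was lost with total count scaling, a stricter filter and DESeq2 (adjusted p = 0.0604, 0.0550 and 0.0747). The host Snhg5 gave a like pair of values. Its members Snord50a and Snord50b, which differ by 1 base and are uncertain for that reason, had log2 fold changes of 0.54 and 0.52, beside 0.33 for Snhg5 (adjusted p = 0.0998). None of the 3 was called.

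Of the members with a part in ribosomal RNA processing, Snord118 and Snord13 are transcribed from their own genes and lie in no annotated host. Snord118, needed for large-subunit ribosomal RNA processing, was at 1.21 CPM in WT against 1.59 and 2.06 CPM in FGR (log2 fold change 0.58 ± 0.29, adjusted p = 0.302). Snord13 had 15, 25 and 21 counts (0.67 ± 0.58). Both were above WT in both FGR libraries without passing the test. Of the 6 members outside any gene on their strand, 5 were above WT in both FGR libraries and none was called. Of the other short structural RNA genes listed, Rn7sk, Rpph1 and Rmrp also have their own promoters, but the list held genes named Scarna too. Of its 20 genes, 15 were above WT in both FGR libraries, against 38.5% of all genes tested. The 2 below WT in both were Scarna2 and Scarna17. In the list, 0 of 15 tested were called. That list summed to 78080 CPM in WT against 91290 and 98540 CPM in FGR. Most of each sum came from Rn7s1 (31580, 36040 and 39970 CPM) and Rn7s2 (32030, 36370 and 39620 CPM). The part of the list in the values of the members was not tested.

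Snora73a and Snora73b, which act in small-subunit ribosomal RNA processing, share the host Snhg3 and differ by 7 bases. Snora73a was at 29.5 CPM in WT against 26.8 and 27.3 CPM in FGR (log2 fold change -0.13 ± 0.10, adjusted p = 0.552). Snora73b was at 16.3 CPM in WT against 13.8 and 22.4 CPM in FGR (adjusted p = 0.757), so its FGR libraries differed 1.62-fold and lay on opposite sides of WT. Snord17 had the widest gap of the well-counted members, with 394 counts in WT and 347 and 780 in FGR. At 7.32 CPM in WT against 5.98 and 17.1 CPM in FGR, its FGR libraries differed 2.85-fold, and its log2 fold change of 0.64 ± 0.38 was not called (adjusted p = 0.409).

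Among the 88 members with 100 or more counts, the FGR libraries differed by over 1.5-fold in 7. FGR replicate 2 was the higher in Snord17, Snora73b, Snora17 and Snord116l12 and the lower in Snord116l7, Snord116l14 and Snord69. The 3 members longer than 200 bases summed to 53.1 CPM in WT against 46.6 and 66.7 CPM in FGR. Replicate 2 was above replicate 1 in 3 of 3, against 12983 of 25561 genes tested. The FGR libraries nearly coincided in Snora73a, so most of the gap came from Snord17 and Snora73b. Members of 120 to 200 bases summed to 194.4, 195.0 and 205.2 CPM and those under 120 bases to 510.7, 517.0 and 527.8 CPM. Replicate 2 was the higher FGR library in 28 of 42 and 45 of 92 of these members.

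**Figure D4:**
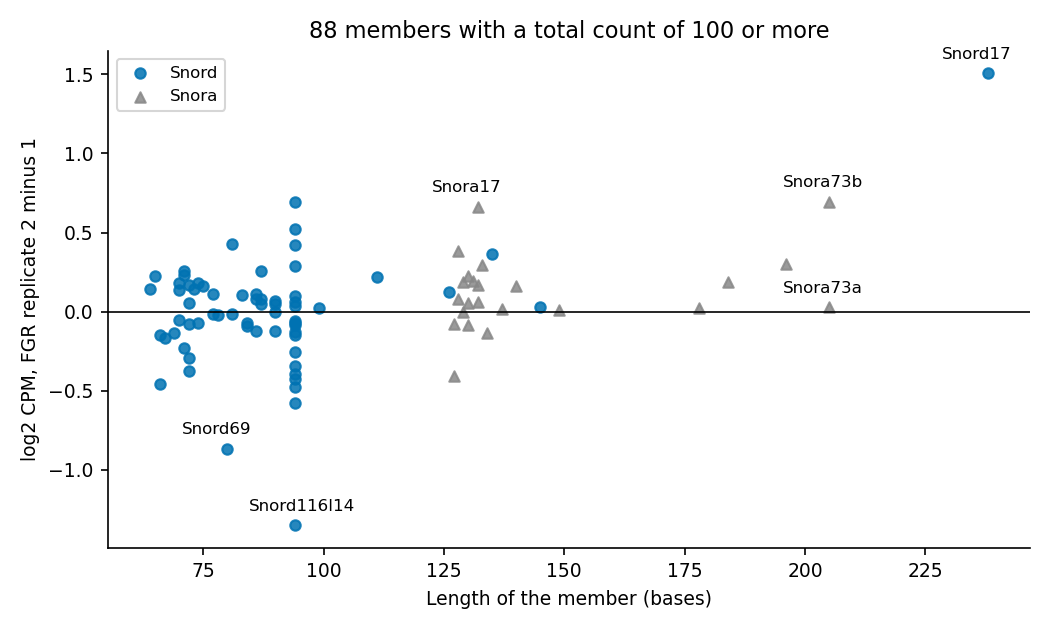
Log2 CPM of FGR replicate 2 minus FGR replicate 1 over the length of each of the 88 members with 100 or more counts. Most points lie near 0; Snord17 (a 2.85-fold gap) and Snora73b (1.62-fold) stand above at the long end, and Snord116l14 and Snord69 below.

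A host gene on the same strand was annotated for 131 members, in 81 genes. Of these members, 67 lay in introns, 42 in exons of retained-intron transcripts only and 22 in other exons. Per length, 35 members were above their host in every library and 84 below it in every library, and the median ratio of member to host was 0.576 in RPKM. The highest ratios were 6.20 for Snora73a, 4.44 and 4.25 for the Snord80 models, 3.88 for Snora73b, 3.02 for Snora52 and 3.00 for Snord17. The counts do not separate mature snoRNA from host RNA that covers the same bases, and for 10 members an antisense gene overlaps whose reads may be included.

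Of the 80 host genes in the table, 6 rose in FGR (7.5%, against 1.66% of all genes tested) and 0 fell (2.59% of all genes). Hosts had a median standard error of 0.08, against 0.17 over all genes tested, so these shares compare unlike precision. These 6 had log2 fold changes of 0.31 for Gas5, 0.34 for Ccar1, 0.36 for Gm38393, 0.39 for Nop58, 0.41 for Rbmx and 0.70 for Rab26os. These hosts held 11 members, 10 of which were above WT in both FGR libraries (38.5% of all genes tested). Of the 11, 1 was called, Snord64. The 11 include both overlapping Snord80 models, and some may share reads with a host picked for its rise. Rab26os, which is antisense to Rab26, was at 3.92 CPM in WT against 6.22 and 6.56 CPM in FGR (adjusted p = 0.0298). Its member Snord60 had 68 counts in WT and 134 and 104 in FGR, or 1.26 CPM in WT against 2.31 and 2.27 CPM in FGR, with a log2 fold change of 0.86 ± 0.25 that was not called (adjusted p = 0.0735). Snord61 of Rbmx, an RNA-binding protein gene, was at 1.88, 2.72 and 2.32 CPM (0.43 ± 0.23, adjusted p = 0.358). Nop58 holds Snord11, at 1.71, 2.26 and 2.12 CPM (0.36 ± 0.24, adjusted p = 0.478), and Snord70, with 13, 12 and 13 counts. DESeq2 did not keep the calls of Ccar1 (adjusted p = 0.191) and Rab26os (adjusted p = 0.319), and Rab26os also lost its call under a stricter filter (adjusted p = 0.0580).

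Across the 117 members tested whose host was also tested, the log2 fold change had the sign of the host's in 75, and the median of member minus host was -0.03. Spearman's rho between them was 0.385 and Pearson's r 0.380, and rho was 0.523 over the 84 members with 100 or more counts, of which 55 had the host's sign. This is across genes that share libraries and, in part, bases and hosts, so it is a description. Of the 80 hosts, 56 were above WT in both FGR libraries and 9 below. Shared signs can therefore arise without a link of member and host, and the share to expect was not computed. By kind of host, members of ribosomal protein and translation genes (43) had a median log2 fold change of 0.05. The median was 0.15 for other protein-coding genes (38) and 0.21 for genes other than Snhg14 that GENCODE M21 lists as noncoding (33). Cct6a, a chaperonin subunit gene listed there as a processed transcript, held 1 of these 33. In the same order, 19, 17 and 19 members (44.2%, 44.7% and 57.6%) were above WT in both FGR libraries, against 38.5% of all genes tested. Below WT in both were 8, 7 and 7 members, against 38.2% of all genes. Without the Gas5 models the share above in the last group was 51.7%. The median of 0.21 rested on Gas5: without the 4 Gas5 models it was 0.12 (29 members), below that of other protein-coding hosts.

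**Figure D5:**
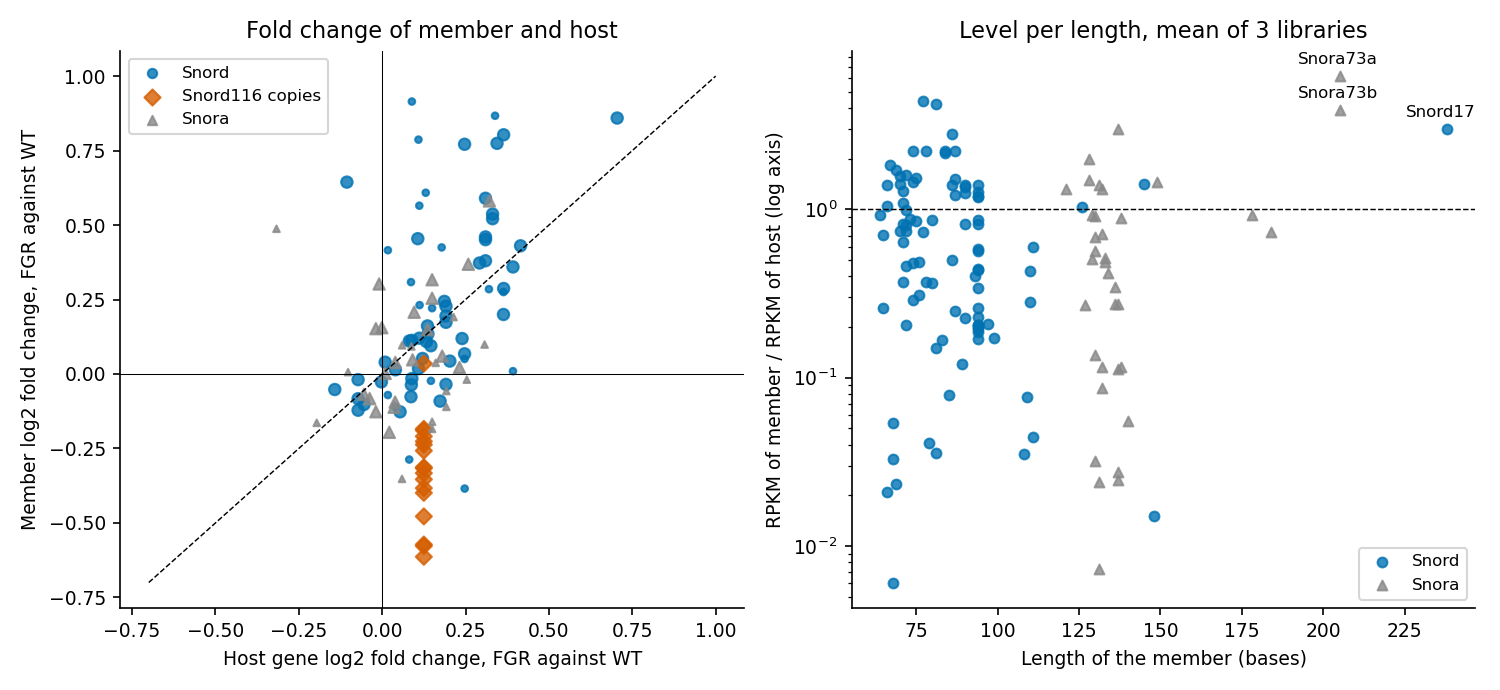
Left, log2 fold change of each member against that of its host gene (dashed line: equal values; small points: members under 100 counts). Right, ratio of member to host RPKM (log axis) against member length. On the left the Snord116 copies form a column below the line at the value of Snhg14 (0.12); on the right Snora73a (6.20), Snora73b (3.88) and Snord17 (3.00) lie above 1 at the long end.

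Among proteins that form snoRNA particles, Nop58, a core box C/D protein, rose from 99.9 CPM in WT to 130.4 and 131.8 CPM in FGR, and the log2 fold change was 0.39 ± 0.07 (adjusted p = 0.00561). It was the 1 of 4 box C/D proteins called. The methyltransferase gene Fbl had a log2 fold change of 0.23 ± 0.12 (adjusted p = 0.332), Nop56 of 0.05 ± 0.07 and Snu13 (listed as Nhp2l1) of 0.0029 ± 0.07. Of 4 box H/ACA proteins 0 were called. Their pseudouridine synthase gene Dkc1 was at 10.3, 12.7 and 13.4 CPM (adjusted p = 0.193) and the most abundant, Nop10, had a log2 fold change of -0.13 ± 0.10 (adjusted p = 0.519).

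Of 15 assembly, maturation and transport genes 0 were called, and the most abundant, the export adaptor gene Phax, was at 55.9, 56.8 and 53.7 CPM. Of 14 trimming and debranching genes, Tent4b (listed as Papd5), a poly(A) polymerase that marks snoRNA precursors for trimming, was called higher, at 57.0 CPM in WT against 70.3 and 66.3 CPM in FGR (adjusted p = 0.0425). This call was lost in 4 alternatives, with adjusted p from 0.0688 to 0.370. Among 23 long noncoding host genes, 18 were above WT in both FGR libraries (78.3%, against 38.5% of all genes tested) and 3 below, the median log2 fold change was 0.18, and Gas5 was the 1 called. Host and particle genes together numbered 124, of which 7 rose (5.65%, against 1.66% of all genes tested) and 0 fell (2.59% of all genes). The 6 called hosts are among these 7. The median standard error was 0.09, against 0.17 over all genes tested, so precision differed here too. These lists were chosen with results of these data known.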

How the data were processed

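RNA of 3 midbrain libraries from postnatal day 3 was sequenced. The authors deposited, for each library, a raw read count, a gene length and an RPKM value per gene. Among tools, the submitters' processing notes name HISAT2, an aligner. Its version, the genome build and how reads were counted (tool, strand, reads with several matches) were not given in the sources used here. RPKM values as deposited by the authors matched those computed from count, length and library total within 0.1% for all 97151 values above 0, and served only for levels per length. The test was the quasi-likelihood F test of edgeR 4.0.16 (R 4.3.3), two-sided, on counts scaled by TMM. It compared FGR with WT in the 25561 genes that filterByExpr kept at a minimum count of 10. The p-values were adjusted by Benjamini and Hochberg over all of them, and an adjusted p under 0.05 was called. The fit had 1 residual degree of freedom, from the FGR pair, which stands in for the unmeasured WT spread. A standard error is the absolute log2 fold change over the root of its F value. For medians, log2 CPM took a prior count of 2.

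GENCODE M21 (GRCm38) gave coordinates, hosts and sequences. All 140 matching identifiers were found in it, and the host was the gene on the same strand with the most counts that contained the member. Members and lists were chosen with earlier results of these data known. Named members were the 6 most counted, the called, and the 3 highest and 3 lowest log2 fold changes in each class, ribosomal RNA processing and imprinted members, and those at the count limit, plus members of called hosts. The Gas5 and Snhg5 members, Snord17, Snord69 and the Rpl13a members were named after their values were seen. The values of 1 of the 6 most counted Snora members are not reported here. Alternatives were DESeq2 1.42.0 size factors and test, scaling by total count alone or without abundant structural RNA, other filters, limma-voom (limma 3.58.1), a robust fit, a prior count of 0.5 and removal of each FGR library.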

Additional observations from a re-analysis of the deposited data

How the results depend on the processing

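No paired analysis was possible because the labels do not pair the WT library with an FGR library. With an FGR library left out no residual degree of freedom remained, so those settings gave values without a test. Snord calls (1) were 2 with total count scaling, 0 in the DESeq2 test, 2 in limma-voom and 3 in the robust fit, and 1 in the other settings. The DESeq2 test gave no adjusted p for some members with few counts. Calls over all genes (1087) were 357 in the DESeq2 test. Host and particle genes called (7) were 4 with total count scaling, 3 under the stricter filter and 3 in the DESeq2 test. The higher share of all calls, 39.0%, was 24.4% with total count scaling. The Snord median without the Snord116 copies, chosen after seeing the data, was 0.20 (0.11 with them). Alternative fits were counted where they gave an adjusted p, 438 in all for 58 named members. Of these fits, 427 gave the same sign and call and 1 lost a call (Snord64). A call was gained in 4 (Snord116l15, the longer Snord80 model, and the shorter one in 2 fits). In 6 fits the sign reversed: Snord68 (-0.0252), Snord116l14 (-0.0037) and Snord70 (-0.0297) with total count scaling, Snord116l14 (-0.085) and Snord70 (-0.0147) in limma-voom, and Snord70 (-0.0015) with the filter on total count alone. Leaving out each FGR library gave medians of 0.07 to 0.14 in Snord and -0.05 to 0.09 in Snora. With either library left out, the log2 ratio of summed CPM ran from 0.02 to 0.08 in Snord and from -0.04 to 0.08 in Snora. Depth limited the 49 members with under 100 counts, 13 of them not tested.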
